A study of Mus musculus with 24 samples.

Results

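Basal cells of the pubertal mammary gland were compared between terminal end buds (TEBs) and ducts in 2 mouse models, and the size of that TEB effect was then compared between the models. The comparison used 8 of the 24 libraries of the series, all those sorted through the basal gate. They form 4 groups of 2. The samples were chosen by their labels alone, and the tested quantity was the interaction, (Elf5 TEB minus Elf5 duct) minus (PR-cre TEB minus PR-cre duct), on the log2 scale. A positive interaction means that the TEB effect was more positive in the Elf5 model, and a negative one that it was more negative there.

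RNA was sequenced in bulk from sorted epithelial cells of pubertal mice whose mammary tissue had been microdissected into ducts and TEBs. The first group came from ducts and the second from TEBs of mice with the Elf5-rtTA-IRES-GFP allele, in which regulatory sequence of Elf5, a luminal progenitor transcription factor, drives the tetracycline transactivator and GFP. The other groups came from ducts and TEBs of PR-cre/Rosa26-LSL-eYFP mice, in which Cre follows the progesterone receptor gene and switches on eYFP. Basal cells of both models were lineage-negative, EpCAM-positive and high for CD29 (integrin beta 1), and were not sorted by reporter. The labels give no strain, no exact age, no number of animals per library and no doxycycline treatment, and leave unstated whether replicate libraries stem from different mice. The p-values therefore measure the spread between these libraries, which may be technical in part. Model, strain and preparation cannot be told apart, since each model is represented by its own mice.

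TEBs are the club-shaped ends at which ducts elongate during puberty. Their outer cap cells lie against a thin basement membrane and proliferate, and as the duct matures behind the tip this layer becomes the contractile myoepithelium, which expresses smooth muscle actin and myosin and squeezes milk from the gland in response to oxytocin. Contraction of such cells depends on actin and myosin filaments, on myosin light chain kinase and phosphatase, and on receptors and cyclic nucleotide signals that set the balance between the 2 enzymes. In bulk RNA, fewer cells of a type and less RNA per cell cannot be told apart.

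Basal libraries held from 35.3 to 49.5 in units of 1e6 counts, so that 3 counts corresponded to 0.061 to 0.085 per 1e6 counts before scaling. Levels are given as CPM (counts per 1e6 counts) on TMM-scaled library sizes, on which this floor differs slightly. The first principal component, with 65.4% of the variance over genes, separated TEBs from ducts, and the second, with 17.9%, separated the models. Basal identity genes summed to 13750 and 14110 CPM in Elf5 ducts, 6780 and 6875 in Elf5 TEBs, 14780 and 15080 in PR-cre ducts and 7235 and 7538 in PR-cre TEBs, and luminal keratin and junction genes summed to 1215 and 1223 CPM in Elf5 ducts, 816 and 901 in Elf5 TEBs, 1046 and 1191 in PR-cre ducts and 680.0 and 767 in PR-cre TEBs. All 4 groups therefore carried the basal programme at a higher level than the luminal one. The Elf5 duct libraries were the least alike replicates (r = 0.9858 across genes on the log2 scale, against 0.9932 to 0.9951 in the other groups). Their summed G2 and M phase level was 843 CPM in replicate 1 and 273 in replicate 2. Replicate 1 also held the highest endothelial sum, 176 CPM, against 90.5 in replicate 2.

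The TEB effect had a similar direction in both models but was larger in the Elf5 model for most genes that changed. Of 16576 genes tested, 7462 (45%) passed in the Elf5 model, 3655 higher and 3807 lower in TEBs, and 5372 (32.4%) passed in the PR-cre model, 2698 higher and 2674 lower. The median absolute TEB effect was 0.595 on the log2 scale in the Elf5 model and 0.466 in the PR-cre model, and the effects correlated across genes with r = 0.609, where genes are not independent replicates. In the mean of both models 8612 genes passed (52%). Among the 4313 of them that rose in TEBs, 97.7% had the same direction in each model and 65.8% rose further in the Elf5 model, with median effects of 0.76 and 0.57. Among the 4299 that fell, 97.8% had the same direction and 70.3% fell further in the Elf5 model, with median effects of -1.03 and -0.77. Because these genes were chosen by the mean of both effects, their agreement in direction was largely set by the choice.

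The interaction itself passed for 456 genes, 2.75% of those tested. Of these, 157 (0.947%) had a more positive and 299 (1.8%) a more negative TEB effect in the Elf5 model, and 100 and 227 of them differed by more than 2-fold. The median interaction of all genes was -0.0383. A total of 2907 genes had an unadjusted p under 0.05. Elf5 and PR-cre libraries were also compared directly, and 1361 genes passed in ducts (8.21%) and 1767 in TEBs (10.7%). Most of the 456 differed between the models in only 1 tissue, 225 in TEBs but not ducts and 152 in ducts but not TEBs, while 61 passed in both and 18 in neither. In 111 of the 299 genes with a negative interaction the level fell in the TEBs of both models, and 29 of the 157 with a positive one rose in both. Opposite called effects were found in 49 genes. These counts depended on single libraries: 85 genes passed without PR-cre duct replicate 1, 91 without PR-cre duct replicate 2, 128 without Elf5 TEB replicate 2, 161 without PR-cre TEB replicate 2, 177 without Elf5 TEB replicate 1 and 1808 without Elf5 duct replicate 1. In the last case 61.8% were positive, against 34.4% with all libraries, and a model over all 24 libraries called 180 genes, 51.1% of them positive.

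**Figure D1:**
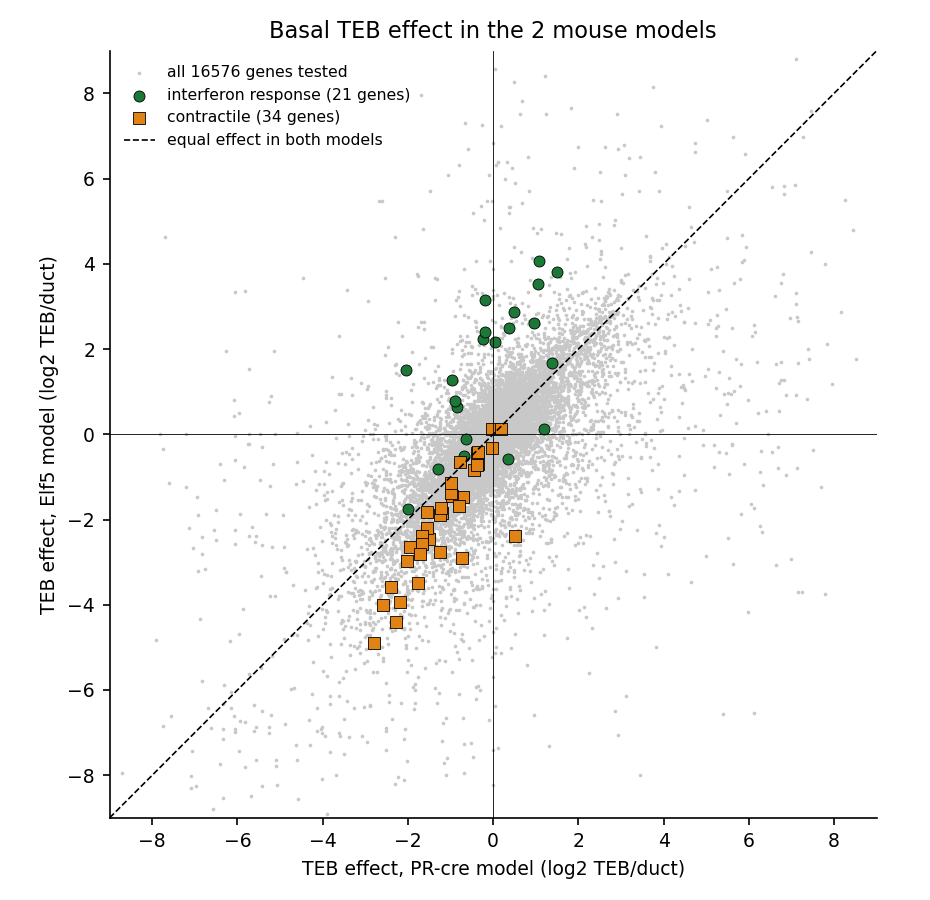
Each grey point is a gene, placed by its TEB effect (log2 TEB over duct) in the PR-cre model on the horizontal axis and in the Elf5 model on the vertical axis; 8 genes lie outside the axes. Most contractile genes (squares) lie below the dashed line of equal effects, and most interferon response genes (circles) lie above it.

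Contractile filament genes fell in the TEBs of both models, and by more in the Elf5 model. All 14 filament genes passed as lower in TEBs in each model, with a median log2 effect of -2.52 in the Elf5 model and -1.60 in the PR-cre model. Of all 2203 genes that passed as lower in both models, 111 had a called negative interaction. Among the filament genes the interaction was negative for 13 of 14, with a median of -0.93, and 4 passed (28.6%, against 1.8% of all genes called lower). Their summed level was 32510 and 33770 CPM in Elf5 ducts, 7701 and 9478 in Elf5 TEBs, 32520 and 34310 in PR-cre ducts and 12730 and 15740 in PR-cre TEBs. Ducts of the 2 models thus lay within the same range, and the separation between models arose in the TEBs, where the groups did not overlap.

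Among the filament genes, Myh11, the smooth muscle myosin heavy chain, was measured at 7227 and 7842 CPM in Elf5 ducts, 544 and 801 in Elf5 TEBs, 7344 and 6979 in PR-cre ducts and 1695 and 2498 in PR-cre TEBs. Both ducts were alike, and each Elf5 TEB library lay below each PR-cre TEB library. The log2 TEB effect was -3.49 in the Elf5 model and -1.77 in the PR-cre model (log2 -1.71 ± 0.30 (SE), adjusted p = 0.0187 for the interaction). Tagln, which encodes the actin-binding protein transgelin, was found at 3573 and 3433 CPM in Elf5 ducts, 572 and 697 in Elf5 TEBs, 4151 and 4537 in PR-cre ducts and 1341 and 1700 in PR-cre TEBs, again with an Elf5 TEB range below the PR-cre one (log2 -0.95 ± 0.21 (SE), adjusted p = 0.0384). Synpo2, an actin-bundling protein of the Z-disc and of smooth muscle, fell to 6.23 and 7.72 CPM in Elf5 TEBs and 15.8 and 22.1 in PR-cre TEBs, from 172 and 241 CPM in Elf5 ducts and 129 and 136 in PR-cre ducts. Its interaction was -2.08 ± 0.28 (adjusted p = 0.00717). Actg2, the enteric smooth muscle gamma actin, was at 323 and 261 CPM in Elf5 ducts, 32.6 and 53.6 in Elf5 TEBs, 532 and 499 in PR-cre ducts and 211 and 225 in PR-cre TEBs. It was lower in the Elf5 model in both tissues, with an interaction of -1.52 ± 0.29 (adjusted p = 0.0301). The coding sequence of Actg2 is close to that of other actins, and how reads with several matches were counted is not given in the sources used here.

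The best known myoepithelial marker, Acta2 (smooth muscle alpha actin), was at 9552 and 9623 CPM in Elf5 ducts, 3125 and 3759 in Elf5 TEBs, 8337 and 9659 in PR-cre ducts and 4964 and 5970 in PR-cre TEBs. The TEB groups did not overlap, but the interaction of -0.76 (95% interval -1.22 to -0.30) missed the threshold (adjusted p = 0.0869). Lmod1, which nucleates actin filaments in smooth muscle, had an interaction of -1.19 (adjusted p = 0.0542) and TEB values of 20.3 and 29.6 CPM in Elf5 TEBs and 61.1 and 67.9 in PR-cre TEBs. Mylk, the myosin light chain kinase, was at 282 and 379.9 CPM in Elf5 TEBs and 535 and 710.2 in PR-cre TEBs (-0.92, adjusted p = 0.0831), and Smtn, or smoothelin, at 169 and 194 CPM in Elf5 TEBs and 234 and 282 in PR-cre TEBs (-0.72, adjusted p = 0.095). The interactions of Cnn1, Des, Tpm2, Myl9 and Cald1 were -0.95, -2.13, -0.65, -0.48 and -0.39, with adjusted p from 0.125 (Cnn1) to 0.309 (Cald1). Tpm1, a tropomyosin also found outside muscle, was the filament gene with a positive value, 0.13 (95% interval -0.23 to 0.49, adjusted p = 0.741), and its TEB levels were 1428 and 1642 CPM in Elf5 TEBs and 1235 and 1264 in PR-cre TEBs.

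**Figure D2:**
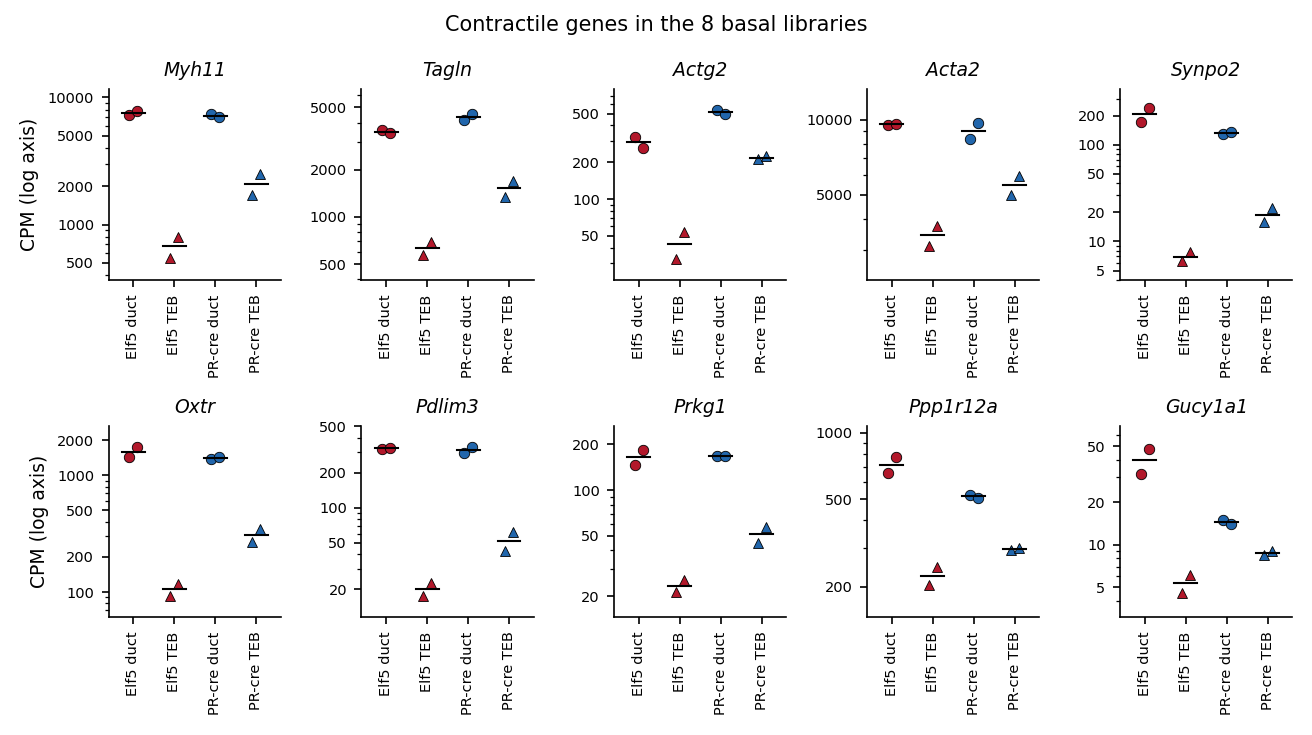
CPM on a log axis in each of the 8 basal libraries for the 9 contractile genes with a called interaction and Acta2; circles are ducts, triangles TEBs, red the Elf5 model, blue the PR-cre model, and the bar is the mean of 2 libraries. The Elf5 TEB libraries lie below the PR-cre TEB libraries in every panel, while duct levels differ little for Myh11, Pdlim3 and Prkg1.

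Most regulators and anchors of the contractile apparatus were also lower in TEBs, and some fell further in the Elf5 model. Of 20 genes tested, 18 passed as lower in Elf5 TEBs and 15 in PR-cre TEBs, with median effects of -1.70 and -0.77. The interaction was negative for 19, with a median of -0.45, and 5 passed (25%, against 1.8% of all genes called lower). For comparison, 111 of the 2203 genes that fell in both models had a called negative interaction. Oxtr, the oxytocin receptor through which milk ejection is triggered, was at 1423 and 1767 CPM in Elf5 ducts, 92.5 and 118 in Elf5 TEBs, 1372 and 1440 in PR-cre ducts and 268 and 349 in PR-cre TEBs. Ducts were alike, and the Elf5 TEB level lay below the PR-cre one in every library (log2 -1.74 ± 0.23 (SE), adjusted p = 0.00481). The TEB effect of Oxtr was -3.92 in the Elf5 model and -2.19 in the PR-cre model.

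On the relaxing side, Gucy1a1, a subunit of the nitric oxide receptor guanylate cyclase, was at 31.7 and 47.7 CPM in Elf5 ducts, 4.51 and 6.14 in Elf5 TEBs, 15 and 14.1 in PR-cre ducts and 8.39 and 9.03 in PR-cre TEBs. It was higher in Elf5 ducts (adjusted p = 0.00217), while the lower values of Elf5 TEBs did not pass against PR-cre TEBs (adjusted p = 0.069). The interaction was -2.16 ± 0.31 (adjusted p = 0.00602). Prkg1, the cyclic GMP-dependent kinase that acts downstream of it, was at 147 and 183 CPM in Elf5 ducts, 21.2 and 25.6 in Elf5 TEBs, 169 and 168 in PR-cre ducts and 45.1 and 57.4 in PR-cre TEBs, with ducts that overlapped and TEBs that did not (log2 -1.10 ± 0.21 (SE), adjusted p = 0.023). Ppp1r12a, the targeting subunit of myosin phosphatase, was at 660.1 and 775 CPM in Elf5 ducts, 203 and 246 in Elf5 TEBs, 522 and 506 in PR-cre ducts and 293 and 299.7 in PR-cre TEBs. The Elf5 values were the higher ones in ducts (adjusted p = 0.0369) and the lower ones in TEBs (adjusted p = 0.0644), with an interaction of -0.88 ± 0.18 (adjusted p = 0.0252). Pdlim3, a PDZ and LIM protein that binds alpha-actinin, was at 322 and 326 CPM in Elf5 ducts and 296 and 335 in PR-cre ducts and at 17.5 and 22.7 CPM in Elf5 TEBs and 42.4 and 62.2 in PR-cre TEBs, an interaction of -1.41 ± 0.25 (adjusted p = 0.0219).

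Some general cytoskeletal regulators in the list gave values near 0. Srf, the serum response factor that drives many contractile genes, had an interaction of 0.16 (95% interval -0.18 to 0.49), Rhoa -0.06 (-0.36 to 0.25), and Rock1 -0.04 (-0.42 to 0.33). Actn1 and Pdlim7 gave -0.15 and -0.06. Other members lay lower without passing, Csrp1 at -0.50 (-0.87 to -0.12), Vcl at -0.40 (-0.76 to -0.04) and Flna at -0.34 (-0.74 to 0.06). Of the 20 genes in the list, 19 were negative. Myocd, the smooth muscle coactivator of Srf, was near the floor with at most 2.49 CPM, and its interaction of -2.91 had an interval of -5.25 to -0.56. The coactivators Mrtfa and Mrtfb were at -0.35 and -0.32 (adjusted p = 0.447 and 0.387).

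**Figure D3:**
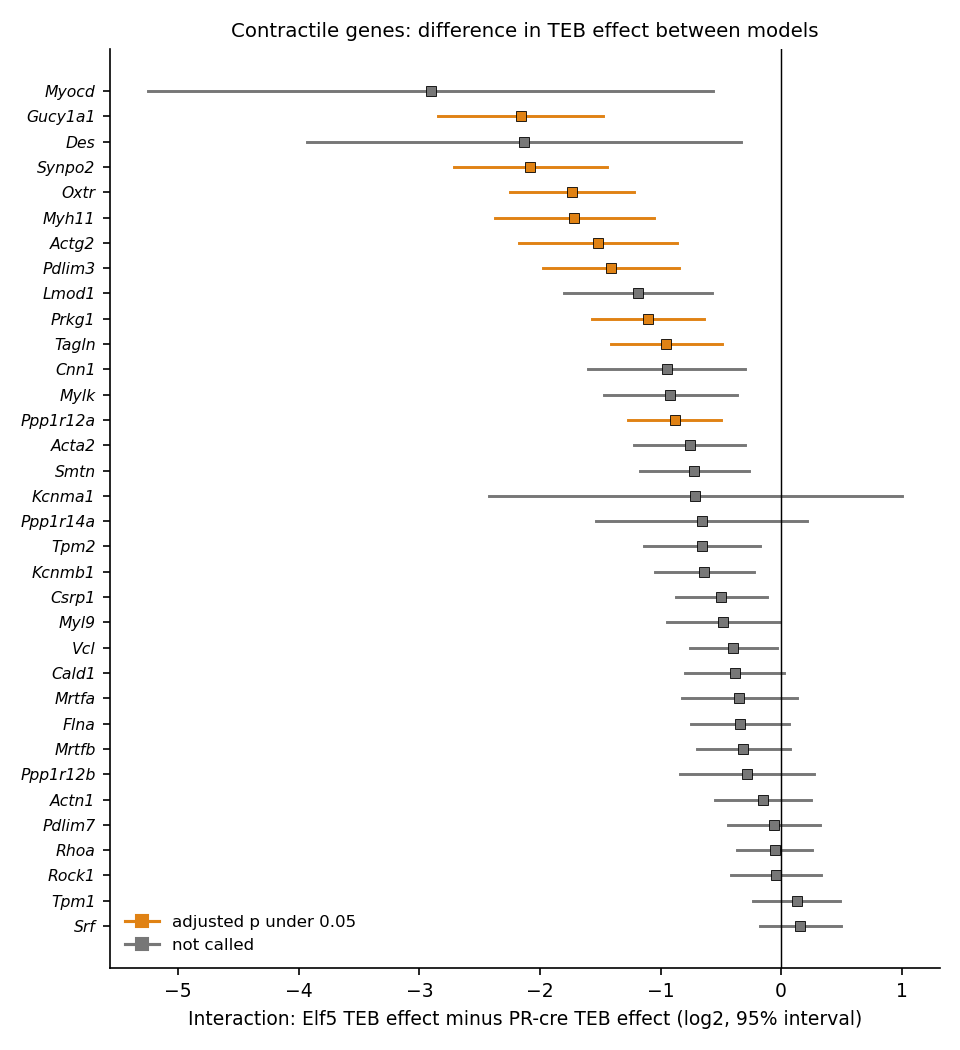
Interaction (Elf5 TEB effect minus PR-cre TEB effect, log2) of the 34 contractile genes as squares with 95% intervals, orange where the adjusted p is under 0.05. The 9 called genes lie between -2.16 and -0.88, and 32 of the 34 values lie below 0.

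Over both contractile lists the median interaction was -0.686. It stayed between -0.501 and -0.872 in the 18 alternatives that gave a value. The median log2 level of the lists in each library had a spread between replicates of 0.215, the square root of the summed variances of the 4 groups. That spread is not a standard error of the median interaction. The number of called members was less stable, at 9 with all libraries, 0 without PR-cre duct replicate 1, 1 without PR-cre duct replicate 2, 5 without Elf5 TEB replicate 1 or PR-cre TEB replicate 2, 2 in the model over 24 libraries and 14 with DESeq2. Pericyte and vascular smooth muscle markers, a cell type with contractile genes of its own, summed to 219 and 261 CPM in Elf5 ducts, 84.8 and 88.8 in Elf5 TEBs, 159 and 188 in PR-cre ducts and 132 and 128 in PR-cre TEBs, so their sum too was lower in TEBs, and by more in the Elf5 model. Their part in the contractile result was not tested. Of the 10 markers, 9 had a negative interaction, with a median of -1.62, and Notch3 passed (10%, against 2.75% of all genes). DESeq2 called 3. Mcam gave most of the counts in the sum. Pdgfrb was at 30.1 and 26 CPM in Elf5 ducts, 14.5 and 9.54 in Elf5 TEBs, 13.9 and 16.3 in PR-cre ducts and 3.99 and 8.11 in PR-cre TEBs, and Cspg4 at 11.9 and 12.2 CPM in Elf5 ducts, 6.67 and 6.38 in Elf5 TEBs, 8.71 and 4.91 in PR-cre ducts and 6.0 and 4.21 in PR-cre TEBs. Both were highest in Elf5 ducts. Des is also among the filament genes. Higd1b was listed at 0 in 5 of the 8 libraries, and Rgs5, Higd1b and Kcnj8 did not exceed 4.77, 0.457 and 1.59 CPM in any library.

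The basal identity genes had a median TEB effect of -1.06 in the Elf5 model and -0.58 in the PR-cre model. Of 20, 12 had a negative and 8 a positive interaction, with a median of -0.11. The interaction passed for 1 (5%, against 2.75% of all genes), 9 had an unadjusted p under 0.05, and DESeq2 called 3. The called gene was Itga6, the alpha6 integrin chain that binds laminin, at 1569 and 1761 CPM in Elf5 ducts, 1216 and 1291 in Elf5 TEBs, 963 and 958 in PR-cre ducts and 1287 and 1193 in PR-cre TEBs. Its level fell in Elf5 TEBs and rose in PR-cre TEBs, and the TEB libraries of the models overlapped (log2 -0.78 ± 0.16 (SE), adjusted p = 0.03). Krt14 was at 2844 and 3236 CPM in Elf5 ducts, 336 and 412 in Elf5 TEBs, 2916 and 3441 in PR-cre ducts and 498 and 778 in PR-cre TEBs, with TEB effects of -3.02 and -2.32 and an interaction that did not pass (-0.71, 95% interval -1.33 to -0.08, adjusted p = 0.228). For Krt5 the sign was opposite (0.54, 0.13 to 0.95, adjusted p = 0.158), and Trp63, the transcription factor of basal identity, gave -0.41 (-0.79 to -0.04, adjusted p = 0.241). Lgr5, a Wnt-pathway receptor of stem and basal cells, fell from 61.2 and 112 CPM in Elf5 ducts and 211 and 218 in PR-cre ducts to 0.267 and 1.21 CPM in Elf5 TEBs and 4.3 and 6.91 in PR-cre TEBs (-1.59, adjusted p = 0.396).

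Proliferation genes rose in the TEBs of both models, and none passed the test of a difference. Of 30 S phase genes, 26 rose in the Elf5 model and 20 in the PR-cre model (medians 1.69 and 1.47), and of 30 G2 and M phase genes, 28 and 26 rose (2.46 and 2.53). The median interactions were 0.39 and -0.06. Unadjusted p-values under 0.05 were found for 2 S phase and 0 G2 and M phase genes, and DESeq2 called 1 and 0. Intervals were wide, and the Elf5 duct libraries differed. Mcm5, a subunit of the replicative helicase, was at 45 and 9.09 CPM in Elf5 ducts, 159 and 150.4 in Elf5 TEBs, 41.4 and 33.2 in PR-cre ducts and 145 and 126 in PR-cre TEBs (interaction 0.64, 95% interval -1.94 to 3.23). Tyms, or thymidylate synthase, was at 46.2 and 45.8 CPM in Elf5 TEBs and 39 and 34.6 in PR-cre TEBs and 7.9 and 5.75 CPM in Elf5 ducts and 10.4 and 9.94 in PR-cre ducts (0.89, adjusted p = 0.073). Of 22 cholesterol synthesis genes, 20 rose in the Elf5 model and 16 in the PR-cre model (medians 1.14 and 0.82), with 0 called for the interaction by edgeR, DESeq2 or limma voom and 3 with an unadjusted p under 0.05.

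The interferon response genes moved apart in the 2 models. Of 21 genes tested, 9 passed with a positive interaction (42.9%, against 0.947% of all genes) and 0 with a negative one. DESeq2 called 11 and limma voom 4. The median TEB effect was 1.67 in the Elf5 model, where 12 rose and 4 fell, and -0.20 in the PR-cre model, where 2 rose and 7 fell. The median interaction was 2.12. Summed over the list, the level was 266 and 279.9 CPM in Elf5 ducts, 267 and 327 in Elf5 TEBs, 268 and 272 in PR-cre ducts and 152 and 177 in PR-cre TEBs. In this sum, which follows the members with most counts, Elf5 ducts and TEBs overlapped, and the PR-cre TEBs lay below all other libraries. As background, type I interferons act through transcription factors that bind interferon-stimulated response elements in the promoters of antiviral genes.

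Isg15, a ubiquitin-like protein conjugated to targets after interferon exposure, was at 3.39 and 2.54 CPM in Elf5 ducts, 12.6 and 14.3 in Elf5 TEBs, 4.84 and 5.37 in PR-cre ducts and 5.71 and 4.8 in PR-cre TEBs. Both Elf5 TEB libraries stood above the other 6, which lay close together (log2 2.13 ± 0.35 (SE), adjusted p = 0.012). Oasl2, of the oligoadenylate synthetase family, was at 3.97 and 5.23 CPM in Elf5 ducts, 17.1 and 25.9 in Elf5 TEBs, 9.83 and 9.22 in PR-cre ducts and 7.36 and 8.79 in PR-cre TEBs. The Elf5 TEBs were again highest, and Elf5 ducts lay below PR-cre ducts (log2 2.46 ± 0.34 (SE), adjusted p = 0.00571). Oas1a, a synthetase that activates RNase L, was at 0.959 and 1.23 CPM in Elf5 ducts, 11.7 and 13.5 in Elf5 TEBs, 1.53 and 0.857 in PR-cre ducts and 2.26 and 2.68 in PR-cre TEBs, and Usp18, the protease that removes Isg15, at 1.33 and 0.886 CPM in Elf5 ducts, 7.25 and 8.98 in Elf5 TEBs, 2.01 and 1.83 in PR-cre ducts and 2.62 and 2.75 in PR-cre TEBs. Their interactions were 2.48 ± 0.48 (adjusted p = 0.0241) and 2.38 ± 0.47 (adjusted p = 0.0248).

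Bst2, or tetherin, which holds budding virus at the cell surface, rose in both models, from 3.95 and 3.17 CPM in Elf5 ducts and 4.58 and 4.83 in PR-cre ducts to 18.9 and 24.9 CPM in Elf5 TEBs and 9.17 and 9.1 in PR-cre TEBs (log2 1.66 ± 0.31 (SE), adjusted p = 0.0205). Ifih1, the cytosolic RNA sensor MDA5, had another pattern, 1.31 and 2.32 CPM in Elf5 ducts, 3.64 and 6.6 in Elf5 TEBs, 14.6 and 15 in PR-cre ducts and 2.96 and 4.23 in PR-cre TEBs. Here the PR-cre ducts stood apart as high, while the TEB libraries of the models overlapped (log2 3.55 ± 0.51 (SE), adjusted p = 0.00592). Ifi44 reached 8.3 and 16.4 CPM in Elf5 TEBs against at most 3.71 in any other library (2.99, adjusted p = 0.0384). Rtp4 and Xaf1 had interactions of 2.60 and 2.26 (adjusted p = 0.023 and 0.0283), with at most 9.81 and 5.2 CPM.

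Members that did not pass included Rsad2 at 2.30 (adjusted p = 0.156), Mx1 at 3.35 (0.186), Ifit1 at 2.12 (0.122) and Irf7, an amplifier of interferon production, at 1.49 (0.0902). Stat2 and Irf9, transcription factors of the pathway, gave 0.17 (95% interval -0.33 to 0.67) and 0.49 (0.16 to 0.81). Negative values were found for Ifit2 (-0.92, adjusted p = 0.122) and Ifit3 (-1.06, adjusted p = 0.621). Leaving out 1 library reduced the 9 calls to 2 without Elf5 TEB replicate 2, PR-cre duct replicate 1 or PR-cre TEB replicate 2, and to 3 without PR-cre TEB replicate 1 or PR-cre duct replicate 2. Ifih1 and Oasl2 passed in all 19 alternatives. Immune cell markers summed to 36.2 and 22.4 CPM in Elf5 ducts, 8.46 and 9.39 in Elf5 TEBs, 16.9 and 16.8 in PR-cre ducts and 4.82 and 7.22 in PR-cre TEBs, lower in the TEBs of both models, with Ptprc (CD45) at no more than 0.235 CPM in any TEB library.

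**Figure D4:**
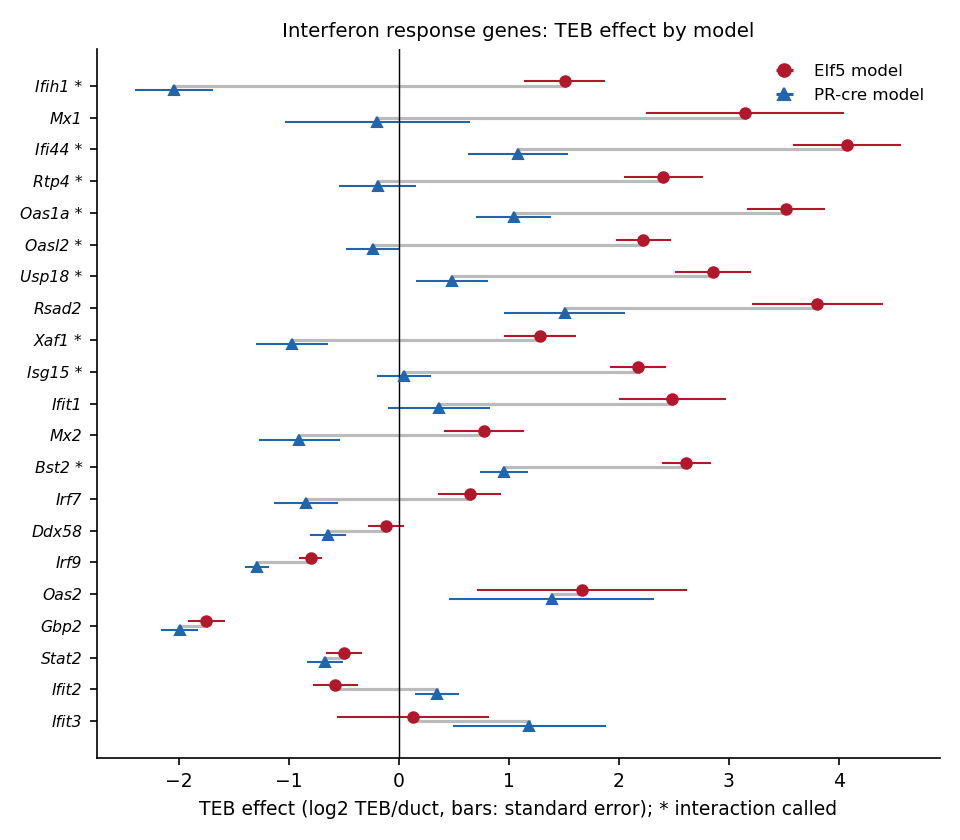
TEB effect (log2 TEB over duct, with standard error) of the 21 interferon response genes in the Elf5 model (red circles) and the PR-cre model (blue triangles), ordered by their interaction; an asterisk marks a called interaction. For 19 of 21 genes the Elf5 value lies to the right of the PR-cre value.

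The promoters of these genes are shown because 19 of the 21 had a positive interaction. RefSeq promoter windows on GRCm38.p6, from 250 bases before to 50 bases after the start, were found for 16 of the 21 genes. They were searched on both strands for GAAANNGAAA, the core of the interferon-stimulated response element. The motif was in 10 of the 16 (62.5%), against 1079 of all 27025 genes (3.99%) and 3.44% of all 32851 windows searched in the same way, and in 4 of 7 called genes and 6 of 9 that were not called. The list holds interferon response genes, so its higher share than that of all genes was largely set by the choice of the list. The stretches below are printed 5′ to 3′ on the gene's strand, with the run of overlapping matches in capitals and 15 bases on each side, or fewer where the start is reached. They lie upstream of the start of Isg15 at chr4:156200860-156200911, of Oas1a at chr5:120907526-120907560 and of Bst2 at chr8:71537572-71537617, all on the minus strand.
Isg15: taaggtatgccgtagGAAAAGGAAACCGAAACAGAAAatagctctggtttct
Oas1a: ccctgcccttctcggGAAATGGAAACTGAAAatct
Bst2: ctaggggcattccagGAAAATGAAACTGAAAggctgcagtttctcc
A match is a description of these letters and was not tested for binding. The motif was found both in called and in other members of the list.

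Immediate early genes, the first transcripts induced by growth factors or stress, fell in the TEBs of both models. Of 25 genes, 21 fell in the Elf5 model and 19 in the PR-cre model. A negative interaction passed for 3 (12%, against 1.8% of all genes called lower). Fos, a subunit of the AP-1 transcription factor, was at 6059 and 9382 CPM in Elf5 ducts, 672 and 788 in Elf5 TEBs, 7052 and 7096 in PR-cre ducts and 1445 and 1524 in PR-cre TEBs (log2 -1.15 ± 0.26 (SE), adjusted p = 0.0413). Egr1, a zinc-finger transcription factor, was at 5135 and 7201 CPM in Elf5 ducts, 969 and 1176 in Elf5 TEBs, 5156 and 4747 in PR-cre ducts and 2034 and 2450 in PR-cre TEBs (log2 -1.38 ± 0.25 (SE), adjusted p = 0.0187), and Btg2, an antiproliferative gene, at 1192 and 1616 CPM in Elf5 ducts, 307 and 277 in Elf5 TEBs, 667 and 819.6 in PR-cre ducts and 372 and 556 in PR-cre TEBs (log2 -1.58 ± 0.30 (SE), adjusted p = 0.0259). For all 3 genes each Elf5 TEB library lay below each PR-cre TEB library, and the Elf5 duct libraries differed from each other more than the PR-cre ones did. Without Elf5 TEB replicate 1, PR-cre duct replicate 1 or PR-cre duct replicate 2, none of these 3 calls was kept.

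Signals and their receptors moved in both directions. In the EGF family, 2 of 14 genes passed (14.3%, against 2.75% of all genes), both positive. Hbegf, a heparin-binding EGF receptor ligand, was at 79.1 and 67.9 CPM in Elf5 ducts, 30.2 and 43.8 in Elf5 TEBs, 56.9 and 74.8 in PR-cre ducts and 8.33 and 12.1 in PR-cre TEBs, so that it fell in both models and by more in the PR-cre model (log2 1.70 ± 0.32 (SE), adjusted p = 0.0284). Tgfa, another ligand of that receptor, rose in both, from 25.9 and 15.3 CPM in Elf5 ducts and 27.2 and 24.3 in PR-cre ducts to 93 and 106 CPM in Elf5 TEBs and 52.4 and 42.8 in PR-cre TEBs (1.38 ± 0.31, adjusted p = 0.0493). Of 21 FGF pathway genes 1 passed, a share (4.76%) near the 2.75% of all genes. This gene, Fgf1, was at 51.4 and 64.2 CPM in Elf5 ducts, 11.4 and 9.95 in Elf5 TEBs, 295 and 295 in PR-cre ducts and 145 and 136 in PR-cre TEBs. It was lower in the Elf5 model in both tissues, and fell further there in TEBs (log2 -1.36 ± 0.18 (SE), adjusted p = 0.00481), a call kept in all 19 alternatives.

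In the Wnt list 4 of 24 genes passed (16.7%, against 2.75% of all genes), 3 inhibitors of the pathway and 1 ligand. Sfrp1, a secreted Wnt antagonist, was at 76.3 and 110.4 CPM in Elf5 ducts, 110.5 and 119 in Elf5 TEBs, 79.5 and 83.7 in PR-cre ducts and 30.0 and 24.5 in PR-cre TEBs. The PR-cre TEBs stood apart as low (log2 1.88 ± 0.24 (SE), adjusted p = 0.00477). Wif1, another secreted inhibitor, was at 328 and 229 CPM in Elf5 ducts, 152 and 126 in Elf5 TEBs, 90.6 and 109.6 in PR-cre ducts and 134 and 129 in PR-cre TEBs, highest in Elf5 ducts, with TEB libraries that overlapped (log2 -1.39 ± 0.24 (SE), adjusted p = 0.0185). Apcdd1, a membrane inhibitor, and the ligand Wnt5b fell in the TEBs of both models, with interactions of -1.16 and -1.07 (adjusted p = 0.0315 and 0.0415). Notch3, the called gene of 20 in the Notch list (5%, near the 2.75% of all genes), was at 27.3 and 25.8 CPM in Elf5 ducts, 8.27 and 7.45 in Elf5 TEBs, 4.52 and 4.68 in PR-cre ducts and 7.84 and 8.46 in PR-cre TEBs. It fell in Elf5 TEBs and rose in PR-cre TEBs to overlapping levels (log2 -2.58 ± 0.25 (SE), adjusted p = 0.00089), and passed in all 19 alternatives. Notch3 is also a pericyte and vascular smooth muscle marker.

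Basement membrane genes included 2 called of 24 (8.33%, against 2.75% of all genes). Lama1, the laminin alpha1 chain, was at 1185 and 952 CPM in Elf5 ducts, 1752 and 1588 in Elf5 TEBs, 437 and 446 in PR-cre ducts and 1475 and 1535 in PR-cre TEBs, and Nid1, nidogen, which links laminin to collagen IV, at 155 and 124 CPM in Elf5 ducts, 133 and 142 in Elf5 TEBs, 121 and 114 in PR-cre ducts and 212 and 242 in PR-cre TEBs. Lama1 rose in TEBs of both models from a higher duct level in the Elf5 model (log2 -1.13 ± 0.18 (SE), adjusted p = 0.0111). Nid1 rose in the PR-cre model, and its value in the Elf5 model was -0.02 (log2 -0.97 ± 0.18 (SE), adjusted p = 0.0188 for the interaction). Col8a1, a short-chain collagen, was called among 23 other matrix genes (4.35%, near the 2.75% of all genes) and is among the largest interactions.

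Among lists that were not basal, 2 of 14 luminal progenitor genes passed (14.3%, against 2.75% of all genes). They were Cxcr4, the receptor of the chemokine Cxcl12, at 36.4 and 25.6 CPM in Elf5 ducts, 3.1 and 3.79 in Elf5 TEBs, 47.5 and 50.4 in PR-cre ducts and 22.6 and 20.5 in PR-cre TEBs (log2 -1.99 ± 0.26 (SE), adjusted p = 0.00481), and Trf, transferrin, at 192 and 150.3 CPM in Elf5 ducts, 5.21 and 7.43 in Elf5 TEBs, 308 and 309 in PR-cre ducts and 34.5 and 41.9 in PR-cre TEBs (log2 -1.74 ± 0.24 (SE), adjusted p = 0.00604). Both fell in TEBs of both models and were lowest in Elf5 TEBs. In the milk list, 2 of 13 passed (15.4%, against 2.75% of all genes). Btn1a1, butyrophilin of the milk fat globule, was at 9.63 and 9.29 CPM in Elf5 ducts, 0.437 and 0.486 in Elf5 TEBs, 0.679 and 1.77 in PR-cre ducts and 1.36 and 1.6 in PR-cre TEBs (log2 -4.62 ± 0.63 (SE), adjusted p = 0.00502), and Xdh, xanthine oxidoreductase of the same membrane, gave -1.44 (adjusted p = 0.037). Vldlr, called among 27 guidance genes (3.7%, near the 2.75% of all genes) as a reelin receptor, gave -0.92 ± 0.15 (adjusted p = 0.0111). In the glycolysis and hypoxia list 2 of 24 passed (8.33%, against 2.75% of all genes), Tpi1 (0.97, adjusted p = 0.0227) and Pgk1 (0.88, adjusted p = 0.0415), both enzymes with processed pseudogenes that may share reads. Of these 24 genes, 19 had a positive and 5 a negative interaction, with a median of 0.61. An unadjusted p under 0.05 was found for 15, DESeq2 called 10 and limma voom 3. In TEBs 10 passed as higher in the Elf5 model and 0 as lower, and in ducts 2 and 2. Of the 15 heat shock, 21 NF-kB and chemokine, 31 TGF-beta and BMP, 22 oxidative phosphorylation and 20 unfolded protein response genes, 0 passed with edgeR. Respectively 2, 3, 10, 2 and 3 had an unadjusted p under 0.05, and DESeq2 called 0, 2, 4, 0 and 0. The median interactions were -0.34, -0.27, -0.0062, 0.30 and 0.12.

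The largest positive interactions, among called genes with at least 10 counts in each group and a mean of at least 5 CPM, had mixed functions. Cntn1, the neural adhesion molecule contactin 1, was at 8.72 and 5.0 CPM in Elf5 ducts, 44.7 and 41.2 in Elf5 TEBs, 1.89 and 2.97 in PR-cre ducts and 0.382 and 0.658 in PR-cre TEBs. It rose in Elf5 TEBs and fell in PR-cre TEBs (log2 4.88 ± 0.48 (SE), adjusted p = 0.00111). Pde7b, a cyclic AMP phosphodiesterase, was at 7.01 and 8.63 CPM in Elf5 ducts, 15.8 and 14.1 in Elf5 TEBs, 6.7 and 7.85 in PR-cre ducts and 0.803 and 0.658 in PR-cre TEBs; ducts overlapped, and the PR-cre TEBs alone were low, under 1 CPM (log2 4.24 ± 0.35 (SE), adjusted p = 0.00062). Cmah, which makes the sialic acid Neu5Gc, was at 13.8 and 13.7 CPM in Elf5 ducts, 152 and 139 in Elf5 TEBs, 22.9 and 17.4 in PR-cre ducts and 20.4 and 9.55 in PR-cre TEBs, high in the Elf5 TEBs alone (log2 3.83 ± 0.46 (SE), adjusted p = 0.0112). Enah, an Ena/VASP protein that extends actin filaments, was at 24.4 and 38.9 CPM in Elf5 ducts, 21.3 and 25.1 in Elf5 TEBs, 16.1 and 13.5 in PR-cre ducts and 1.11 and 1.43 in PR-cre TEBs, with PR-cre TEBs again low (log2 3.10 ± 0.34 (SE), adjusted p = 0.00197). Col8a1 rose in both models, from 1.87 and 2.92 CPM in Elf5 ducts and 1.03 and 1.29 in PR-cre ducts to 137 and 99.99 CPM in Elf5 TEBs and 11.6 and 7.12 in PR-cre TEBs, an effect of 5.64 in the Elf5 model and 3.01 in the PR-cre model (log2 2.62 ± 0.45 (SE), adjusted p = 0.0227).

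The other 5 of these 12 positive genes, apart from Ifih1 and Oasl2 above, lay between 2.39 and 2.74. Plaur, the urokinase receptor of pericellular proteolysis, was at 19.7 and 28.5 CPM in Elf5 TEBs and 6.48 and 7.83 in PR-cre TEBs, with duct values of 26.1 and 19.5 CPM in Elf5 ducts and 39.5 and 31.1 in PR-cre ducts. Slitrk2, a neuronal transmembrane protein, reached 15.6 and 15.3 CPM in Elf5 TEBs against at most 4.47 elsewhere. Enpp4 was at 23.4 and 22.5 CPM in Elf5 TEBs and 10.0 and 9.01 in PR-cre TEBs and at 13 and 6.97 CPM in Elf5 ducts and 29.1 and 25.6 in PR-cre ducts, a reversal of order between the tissues. Igtp, an interferon-induced GTPase, was at 18.1 and 19.4 CPM in Elf5 TEBs and 3.34 and 7.15 in PR-cre TEBs (interaction 2.42, adjusted p = 0.0242), and the keratin Krt42 at 39.5 and 20.9 CPM in Elf5 TEBs and 6.79 and 4.7 in PR-cre TEBs (2.49, adjusted p = 0.044). Krt42 lost its call without any 1 of 7 of the 8 libraries, the exception being Elf5 TEB replicate 2.

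The largest negative interactions had several patterns. In the first, a gene fell in both models and further in the Elf5 model. Rimklb, an amide ligase, was at 7.11 and 14.3 CPM in Elf5 ducts, 0.243 and 0.121 in Elf5 TEBs, 14.1 and 15.8 in PR-cre ducts and 3.52 and 4.84 in PR-cre TEBs (log2 -4.01 ± 0.58 (SE), adjusted p = 0.00602). Fat3, an atypical cadherin, was at 9.12 and 7.69 CPM in Elf5 ducts, 0.121 and 0.267 in Elf5 TEBs, 12.7 and 13.3 in PR-cre ducts and 2.71 and 4.11 in PR-cre TEBs (log2 -3.49 ± 0.50 (SE), adjusted p = 0.00577), and Slc2a13, a proton and myo-inositol transporter, gave -2.87 (adjusted p = 0.0414). In the second, Elf5 ducts were the high group. Sparcl1, a secreted matrix protein related to osteonectin, was at 66.7 and 80.5 CPM in Elf5 ducts, 6.82 and 7.09 in Elf5 TEBs, 7.05 and 7.34 in PR-cre ducts and 7.24 and 4.63 in PR-cre TEBs, so that the 2 Elf5 duct libraries stood apart and the other 6 lay close together (log2 -3.13 ± 0.29 (SE), adjusted p = 0.00068). Ildr2 was at 18.3 and 23.4 CPM in Elf5 ducts and 1.92 and 2.74 in PR-cre ducts and 4.92 and 3.79 CPM in Elf5 TEBs and 3.38 and 5.03 in PR-cre TEBs, Hmcn2, a hemicentin of the matrix, at 14.4 and 10.3 CPM in Elf5 ducts and 2.15 and 1.83 in PR-cre ducts and 1.92 and 3.06 CPM in Elf5 TEBs and 3.54 and 3.55 in PR-cre TEBs, and Apold1, known from endothelial cells, at 24 and 14.6 CPM in Elf5 ducts and 0.886 and 2.03 in PR-cre ducts and 1.5 and 1.84 CPM in Elf5 TEBs and 0.956 and 1.13 in PR-cre TEBs.

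Other negative genes had patterns of their own. Mkx, the tendon transcription factor mohawk, was at 12.9 and 9.43 CPM in Elf5 ducts, 1.09 and 0.704 in Elf5 TEBs, 4.81 and 6.28 in PR-cre ducts and 4.03 and 4.73 in PR-cre TEBs, low in the Elf5 TEBs alone (log2 -3.29 ± 0.44 (SE), adjusted p = 0.00481). Lamc3, the laminin gamma3 chain, was at 3.1 and 1.94 CPM in Elf5 TEBs and 7.44 and 11.4 in PR-cre TEBs (-2.81, adjusted p = 0.0175). Gpx2, a glutathione peroxidase, was at 0.842 and 0.915 CPM in Elf5 ducts, 0.97 and 1.07 in Elf5 TEBs, 6.64 and 5.65 in PR-cre ducts and 62.9 and 48.1 in PR-cre TEBs. It was highest in the PR-cre TEBs, and PR-cre ducts too lay above all Elf5 libraries (log2 -2.96 ± 0.32 (SE), adjusted p = 0.0015). Pcsk6, a proprotein convertase, rose in both models, from 99.65 and 48.3 CPM in Elf5 ducts and 7.38 and 6.11 in PR-cre ducts to 453 and 409 CPM in Elf5 TEBs and 263 and 263 in PR-cre TEBs (log2 -2.74 ± 0.45 (SE), adjusted p = 0.032). Prkag3, a regulatory subunit of the AMP-activated kinase, rose in both to TEB levels that did not pass the test between models (-2.91 for the interaction, adjusted p = 0.0275).

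**Figure D5:**
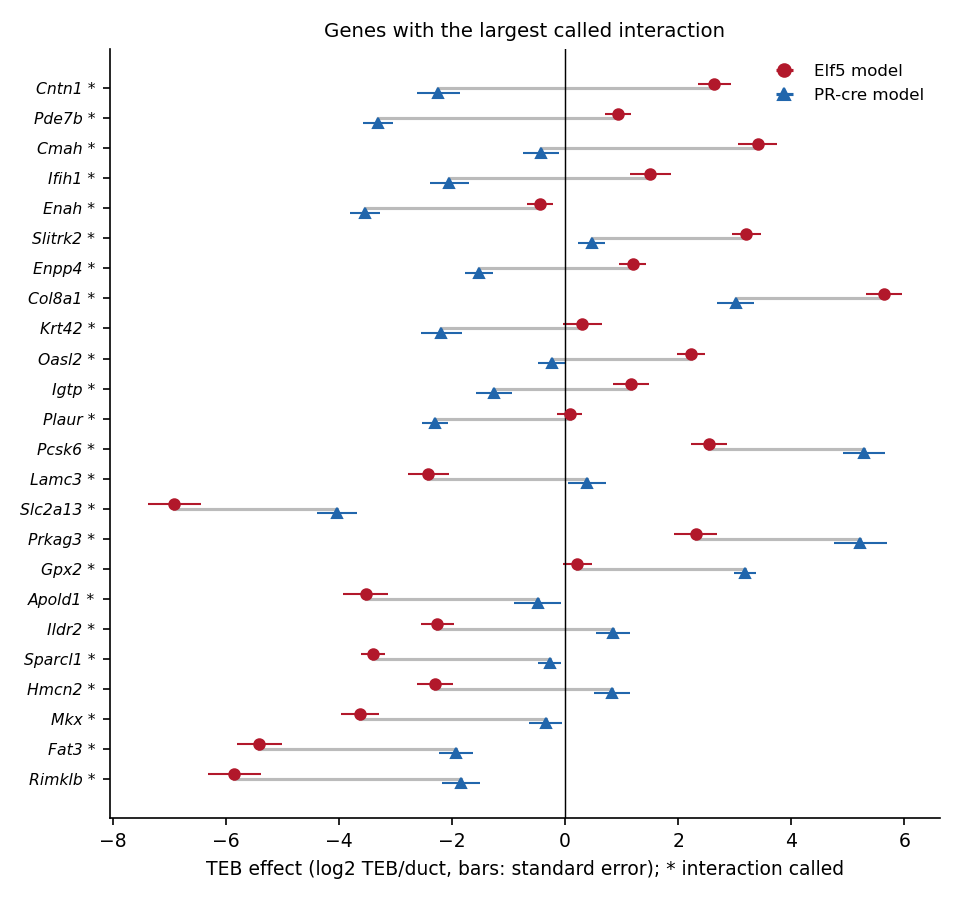
TEB effect (log2 TEB over duct, with standard error) in the Elf5 model (red circles) and the PR-cre model (blue triangles) for the 12 genes with the largest positive and the 12 with the largest negative called interaction. Cntn1, Pde7b, Enpp4, Ifih1 and Igtp lie on opposite sides of 0, whereas Col8a1, Pcsk6, Prkag3, Fat3, Rimklb and Slc2a13 lie on the same side in both models.

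The smallest p-values outside these lists were found for 6 genes. Pdk4, the kinase that switches off pyruvate dehydrogenase, was at 555 and 502 CPM in Elf5 ducts, 106 and 77.2 in Elf5 TEBs, 419 and 411 in PR-cre ducts and 353 and 388 in PR-cre TEBs, low in the Elf5 TEBs alone (log2 -2.36 ± 0.20 (SE), adjusted p = 0.00062). Ckb, the brain-type creatine kinase, was at 104 and 89.7 CPM in Elf5 ducts, 21.2 and 20.6 in Elf5 TEBs, 38.1 and 38.4 in PR-cre ducts and 35.1 and 44.9 in PR-cre TEBs; Elf5 cells had more in ducts and less in TEBs (log2 -2.28 ± 0.20 (SE), adjusted p = 0.00062). Jph2, a junctophilin that joins the plasma membrane to the sarcoplasmic reticulum in muscle, was at 106 and 118 CPM in Elf5 ducts, 8.54 and 9.27 in Elf5 TEBs, 148 and 132 in PR-cre ducts and 37.3 and 43.3 in PR-cre TEBs (log2 -1.86 ± 0.17 (SE), adjusted p = 0.00071). Ehbp1l1 fell in both models, to 17.5 and 18.4 CPM in Elf5 TEBs and 79.2 and 87.5 in PR-cre TEBs (-2.01 ± 0.18, adjusted p = 0.00062). Galnt2, which starts mucin-type O-glycosylation, was at 104 and 134 CPM in Elf5 ducts, 314 and 288 in Elf5 TEBs, 174 and 179 in PR-cre ducts and 116 and 115 in PR-cre TEBs, up in Elf5 TEBs and down in PR-cre TEBs (log2 1.95 ± 0.18 (SE), adjusted p = 0.00062). 1600014C10Rik was at 1460 and 1521 CPM in Elf5 ducts, 814 and 844 in Elf5 TEBs, 23 and 25.3 in PR-cre ducts and 58.4 and 49.8 in PR-cre TEBs, a difference between the models in each library of both tissues (log2 -2.01 ± 0.17 (SE), adjusted p = 0.00062).

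Opposite called TEB effects were also found at low levels, where 3 counts correspond to at most 0.085 CPM. Pld4, a phospholipase D family member, was at 2.06 and 1.29 CPM in Elf5 ducts, 5.94 and 6.77 in Elf5 TEBs, 2.18 and 3.88 in PR-cre ducts and 0.669 and 0.964 in PR-cre TEBs (log2 3.82 ± 0.59 (SE), adjusted p = 0.00898). Gpnmb, a transmembrane glycoprotein, did not exceed 2.26 CPM (-5.86, adjusted p = 0.0259). Fgf14 was at 2.29 and 3.03 CPM in Elf5 ducts and listed at 0 in both PR-cre duct libraries, and 4732490B19Rik was at 8.68 and 6.68 CPM in PR-cre ducts and listed at 0 in both Elf5 duct libraries. The fitted values of Fgf14 and 4732490B19Rik depend on the prior count and are no measure of size.

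Endothelial markers were among the negative interactions, and their levels accompany several genes above. Of 14 markers, 13 had a negative value, with a median of -2.18, and 4 passed (28.6%, against 1.8% of all genes called lower). An unadjusted p under 0.05 was found for 10, DESeq2 called 8 and limma voom 1. The list summed to 176 and 90.5 CPM in Elf5 ducts, 92.5 and 93 in Elf5 TEBs, 50.2 and 66.3 in PR-cre ducts and 137 and 142 in PR-cre TEBs. Elf5 duct replicate 1 was highest and Elf5 duct replicate 2 lay below all TEB libraries, but Cd34 gave most of the sum in every TEB library. Apart from Cd34, Kdr and Plvap, each marker was higher in both Elf5 duct libraries than in any TEB library. Flt1, a VEGF receptor, was at 9.03 and 3.0 CPM in Elf5 ducts, 0.17 and 0.243 in Elf5 TEBs, 0.502 and 0.857 in PR-cre ducts and 0.344 and 0.494 in PR-cre TEBs, with the Elf5 ducts high and replicate 1 highest (-4.14, adjusted p = 0.0353). Tek and Tie1, the angiopoietin receptor and its partner, gave -3.45 and -5.39 (adjusted p = 0.0311 and 0.0235) at no more than 5.61 and 4.77 CPM. Pecam1 (CD31) was at 27.5 and 12.1 CPM in Elf5 ducts, 2.04 and 2.31 in Elf5 TEBs, 2.27 and 4.11 in PR-cre ducts and 0.841 and 2.63 in PR-cre TEBs (-2.29, adjusted p = 0.211). Cd34, also found in other cells, had another order, 45.9 and 29.6 CPM in Elf5 ducts, 59.1 and 58.4 in Elf5 TEBs, 23.1 and 30.6 in PR-cre ducts and 105 and 106 in PR-cre TEBs (-1.33, adjusted p = 0.032). Of 9 tested markers of lymph node high endothelium, 2 passed (22.2%, against 2.75% of all genes), Sele (-3.98, adjusted p = 0.0458) and Ackr1 (-5.91, adjusted p = 0.0428). DESeq2 called 2 of them and limma voom 0. That list summed to 185 and 64.1 CPM in Elf5 ducts, 2.57 and 4.78 in Elf5 TEBs, 12.8 and 34.5 in PR-cre ducts and 3.52 and 6.33 in PR-cre TEBs. Glycam1 alone gave most of the sum in every duct library, with 138 and 43.1 CPM in Elf5 ducts and 7.17 and 27.6 in PR-cre ducts. Apold1, Sparcl1 and Hmcn2 shared the high level in both Elf5 duct libraries with the lymph node list. The part of endothelial RNA in their values was not tested. Without Elf5 duct replicate 1, where 1808 genes passed in all, Apold1, Sparcl1, Hmcn2, Tek, Tie1, Sele and Ackr1 passed, and Flt1 did not. Without either Elf5 TEB library, Apold1, Tek, Tie1, Flt1, Cd34, Sele and Ackr1 lost their calls, and so they did without PR-cre duct replicate 1 or PR-cre TEB replicate 2. Over all alternatives the call was lost in 10 for Tek and Flt1, 9 for Tie1, Cd34, Sele and Ackr1, 8 for Apold1, 3 for Hmcn2 and 0 for Sparcl1.

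None of the tested fibroblast (15), immune (9), adipocyte (6), nerve (9), skeletal muscle (10), skin keratinocyte (8) and erythroid (4) markers passed for the interaction with edgeR. In that order 6, 1, 2, 2, 0, 0 and 0 of them had an unadjusted p under 0.05, and DESeq2 called 2, 0, 2, 1, 0, 0 and 0. Fibroblast markers summed to 1688 and 1115 CPM in Elf5 ducts, 1115 and 759.5 in Elf5 TEBs, 1129 and 1334 in PR-cre ducts and 798 and 1884 in PR-cre TEBs. The PR-cre TEB libraries differed most from each other, and the median interaction was -1.76. The share of counts from mitochondrially encoded genes was 0.619% and 0.667% in Elf5 ducts, 0.173% and 0.305% in Elf5 TEBs, 0.33% and 0.307% in PR-cre ducts and 0.122% and 0.0771% in PR-cre TEBs. It was lower in TEBs than in ducts in both models and higher in Elf5 ducts than in PR-cre ducts, and its part in the results was not tested.

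A list of 28 genes with the largest basal TEB changes was chosen on these same samples, so it is not independent evidence of direction. It served to ask whether the effects differed in size between models: 5 of 28 passed (17.9%, against 2.75% of all genes), Col8a1 with a positive and Fos, Myh11, Oxtr and Pcsk6 with a negative interaction. Among those that did not pass, Mest, an imprinted hydrolase-like gene, rose by 4.38 and 3.97 (95% interval of the interaction -0.05 to 0.86), Kit, the stem cell factor receptor, by 3.44 and 3.57 (-0.62 to 0.38), and Nrg1, neuregulin, by 2.72 and 2.54 (-0.27 to 0.64). Etv5, a transcription factor induced by FGF signals, rose by 1.46 and 1.79 (-0.96 to 0.30). For these 4 genes the intervals lie within a 2-fold difference in either direction. Slpi, a secreted protease inhibitor, fell from 289.5 and 411 CPM in Elf5 ducts and 327 and 396 in PR-cre ducts to 0.97 and 2.16 CPM in Elf5 TEBs and 5.37 and 7.45 in PR-cre TEBs (-1.98, adjusted p = 0.0929), and Grik3, a kainate receptor subunit, from 213 and 267 CPM in Elf5 ducts and 299.8 and 320.5 in PR-cre ducts to 0.752 and 0.583 CPM in Elf5 TEBs and 3.65 and 8.58 in PR-cre TEBs (-2.81, adjusted p = 0.0759).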

How the data were processed

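The 8 basal libraries were analysed with TEB and duct in each model as groups of 2. The authors deposited whole-number counts per gene, made with featureCounts on mm10 per the submitters' processing notes; the sources used here name no aligner, annotation release or strand setting, and the TruSeq v2 kit named in the labels' protocols does not mark strand. Symbols were matched from RefSeq for 25275 and from GENCODE for 18 of 27179 genes; genes without one held 1.22% of counts. In R 4.3.3, edgeR 4.0.16 filtered genes with filterByExpr (minimum count 10, minimum total 15), scaled libraries by TMM and fitted a robust quasi-likelihood model with 4 group means and 4 residual degrees of freedom. Contrasts were tested with its F-test, adjusted by Benjamini-Hochberg over 16576 genes, with a threshold of 0.05. Adjusted p-values in the text are edgeR's except where another tool is named. Standard errors are the log2 change divided by the square root of F. Only basal libraries entered the model because 2 luminal libraries carried keratinocyte transcripts that widen the spread of basal keratins; a model of all 24 libraries was an alternative, as were 22 libraries, other scalings and filters, DESeq2 1.42.0, limma voom 3.58.1, replicate blocks and each library left out.

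Members and gene lists were chosen with earlier results of these data known. Named genes are the contractile lists, the 12 largest called interactions in each direction (at least 10 counts per group, mean of at least 5 CPM), the 6 smallest p-values besides, called members of the lists (1 gene is not reported here), 6 opposite effects and the largest basal TEB changes. The interaction test was tested on simulated data. No replicate pair agreed within counting noise: chi-square divided by its degrees of freedom was 18.57 to 59.31. Intervals on single libraries cover counting error only, since reads carry no molecular identifiers.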

Additional observations from a re-analysis of the deposited data

Results flagged for a closer look

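A TEB effect that differed between the models by the test of the interaction itself was found for 456 genes. The values that follow are log2 interactions, positive where the TEB effect was more positive in the Elf5 model, and each has an adjusted p under 0.05. Among contractile filament genes they were Myh11 -1.71, Synpo2 -2.08, Actg2 -1.52 and Tagln -0.95. Regulators and anchors of the contractile apparatus gave Oxtr -1.74, Gucy1a1 -2.16, Prkg1 -1.10, Pdlim3 -1.41 and Ppp1r12a -0.88. In the interferon response list the values were Ifih1 3.55, Ifi44 2.99, Rtp4 2.60, Oas1a 2.48, Oasl2 2.46, Usp18 2.38, Xaf1 2.26, Isg15 2.13 and Bst2 1.66.

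The largest further differences were Plaur 2.385, Igtp 2.42, Krt42 2.49, Col8a1 2.62, Enpp4 2.72, Slitrk2 2.74, Enah 3.10, Cmah 3.83, Pde7b 4.24 and Cntn1 4.88 in the positive and Rimklb -4.01, Fat3 -3.49, Mkx -3.29, Hmcn2 -3.14, Sparcl1 -3.13, Ildr2 -3.11, Apold1 -3.04, Gpx2 -2.96, Prkag3 -2.91, Slc2a13 -2.87, Lamc3 -2.81 and Pcsk6 -2.74 in the negative direction. Small p-values also singled out 1600014C10Rik -2.01, Ckb -2.28, Ehbp1l1 -2.005, Jph2 -1.86 and Pdk4 -2.36, and Galnt2 at 1.95 in the other direction. Genes whose TEB effects were called in opposite directions included Gpnmb -5.86 and Tek -3.455, and Pld4 at 3.82. Fgf14 was fitted at -7.85 and 4732490B19Rik at 6.92. Each of the last 2 had a duct group with no counts, so its fitted value depends on the prior count and is no measure of size.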

How the results depend on the processing

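With 2 libraries per group the spread is poorly known. Of 1642 gene values under an alternative, 0 reversed, but most of these genes were chosen by their calls on the same libraries. That choice left little room for a reversal, so it is no test of the directions. Of the 77 called genes that were followed, 62 lost their call in at least 1 of 19 alternatives. Genes that kept it in all were 1600014C10Rik, Btn1a1, Cntn1, Cxcr4, Ehbp1l1, Enah, Enpp4, Fgf1, Galnt2, Ifih1, Notch3, Oasl2, Pde7b, Plaur and Sparcl1. The median contractile interaction stayed between -0.501 and -0.872. Scaling moved the median interaction of all genes by at most 0.023. Genes that were not called may still differ, since the depth and 2 libraries per group limit what can be detected.

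DESeq2 called 973 interaction genes (399 higher, 574 lower), 14 contractile and 9 filament genes. Without a low-count filter 736 passed (267 and 469), with 8 filament genes. The model of 24 libraries called 180 (92 and 88), with 2 contractile and 1 filament gene, and that of 22 libraries, which leaves out the 2 luminal libraries with keratinocyte transcripts, called 5 contractile genes and 364 in all, 44.8% of them higher. With limma voom 4 interferon genes passed. At an adjusted p under 0.01, 83 interaction genes (23 and 60), 3 contractile, 1 filament and 2 interferon genes, 3279 genes of the PR-cre TEB effect, 578 of the duct and 772 of the TEB difference between models passed.

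With 1 library left out, where the lone library of a group is assumed to vary like the others, the interaction count ran from 85 to 1808, the higher part from 30 to 1117 and the lower part from 47 to 691. Ranges were 5137 to 7648 for the Elf5 and 3143 to 6346 for the PR-cre TEB effect, 497 to 2384 for the duct and 702 to 2676 for the TEB difference between models. Called contractile genes ran from 0 to 12, filament genes from 0 to 7 and interferon genes from 2 to 13. The lowest interaction count was found without PR-cre duct replicate 1 and the highest without Elf5 duct replicate 1.

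The labels give the same replicate numbers to ducts and TEBs without saying what they share. Deviations of same-numbered libraries from their group means correlated at 0.147 in the Elf5 and 0.067 in the PR-cre model. A replicate block within each model called 751 interaction genes (261 higher, 490 lower), and a single block by number called 551, with 8 filament genes. Of the 77 called genes followed, 1 (Actg2) lost its call with the block within each model and 0 with the block by number.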

Other observations

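A group of 12 interferon-gamma targets, GTPases and MHC class I pathway genes gathered after the values were seen, had no negative interaction and a median of 1.04. Of these, 4 were called (33.3%, against 0.947% of all genes called higher): Igtp 2.42 (adjusted p = 0.0242), Irgm2 1.52 (adjusted p = 0.0357), Irgm1 1.33 (adjusted p = 0.00592) and H2-K1 1.22 (adjusted p = 0.0143). Because the genes were gathered with their values known, their share and common sign may follow from the choice. The share over all genes is therefore no fair comparison. Irgm1, a GTPase of autophagy and pathogen defence, was at 51.7 and 62.3 CPM in Elf5 ducts, 71.1 and 85.3 in Elf5 TEBs, 47.7 and 45.3 in PR-cre ducts and 25.6 and 25.2 in PR-cre TEBs. The PR-cre TEBs were the low group. H2-K1, a classical MHC class I heavy chain, was at 306 and 299 CPM in Elf5 ducts, 169 and 197 in Elf5 TEBs, 298 and 301 in PR-cre ducts and 64.4 and 90.6 in PR-cre TEBs, so it fell in both models and by more in the PR-cre model. B2m, the class I light chain, gave 0.55 (adjusted p = 0.181).

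Circadian clock genes were also looked at after their values had been seen. Of 19, 4 were called (21.1%, against 2.75% of all genes): Cry1, a repressor of the clock, at 0.98 (adjusted p = 0.0252), and Nr1d2, Nr1d1 and Tef at -1.32, -1.49 and -1.10 (adjusted p = 0.00571, 0.024 and 0.0111). Nr1d1, the repressor REV-ERB alpha, was at 24.7 and 26.3 CPM in Elf5 ducts, 11.3 and 8.18 in Elf5 TEBs, 17.3 and 16.2 in PR-cre ducts and 15.1 and 21 in PR-cre TEBs. It fell in the Elf5 model, and the PR-cre TEB effect was 0.11 on the log2 scale (adjusted p = 0.735). The median interaction of the 19 genes was -0.595, with 16 negative. As the list was made with the values known, its share of calls and its signs may follow from the choice. They cannot be weighed against all genes. The labels used here give no time of day for the dissections.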
